A study of Mus musculus with 12 samples.

Results

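Interferon-stimulated genes were followed over 10 days in fibroblasts of mouse embryos given 6TCF or SGCF, each a combination of chemicals: 4 guanylate-binding and immunoproteasome genes (Gbp2, Gbp3, Psmb8, Psmb9) and 5 genes of the type I interferon set (Bst2, Rsad2, Isg15, Ifit1, Ifit3). The 9 genes were chosen by name, with earlier results of these data known, and their probe sets were read in both arms at every day. Shares of all genes are given beside the members as a description, not as a test of the set. Of the 9, 8 had a probe set annotated to a single gene symbol, out of 12393 genes in all, and each of the 8 was among the 10674 genes bright enough to test. The only probe set for Isg15, the ubiquitin-like modifier of the antiviral response, was annotated to a second gene as well, so no value is named for it. Gbp2, a GTPase, was the member that moved most: between days 0 and 10 it rose 13.2-fold under 6TCF and 2.43-fold under SGCF, with folds taken on intensity + 16. Under SGCF it first fell 2.45-fold by day 5. Between days 0 and 10 under 6TCF, Gbp3, Psmb8, Bst2 and Ifit3 rose as well, in a comparison in which 23.2% of all genes tested rose. Under SGCF, where 20.5% of all genes rose and 18.3% fell, Bst2 fell. These changes rest on each arm's own day 0, where Bst2, Psmb8 and Ifit3 were already higher in the SGCF arm. With the day 0 arrays of both arms as 1 group, Psmb8 and Ifit3 were not called under 6TCF, nor was Bst2 under SGCF.

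The cells were fibroblasts prepared from embryos and plated in medium with 10% fetal bovine serum, then given a medium with 15% serum and basic fibroblast growth factor. Each combination, known here by its code name only, has arrays labelled day 0, day 5 and day 10, with 2 arrays per group and 12 Affymetrix Mouse Genome 430A 2.0 arrays in all. The sources used here give neither strain nor genotype, nor what 6TCF and SGCF are made of, nor whether a culture labelled day 0 had already met the chemicals. No array is labelled as an untreated culture at day 5 or 10, so time and medium change together with the chemicals. The labels do not say whether the 2 arrays of a group are separate embryos or cultures, and the spread behind the p-values may then be technical.

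Interferons are secreted proteins that act through receptors and JAK kinases on STAT and IRF transcription factors. Type I interferons act mainly through a STAT and IRF complex that binds the interferon-stimulated response element (ISRE). Interferon-gamma acts mainly through STAT dimers that bind the gamma-activated site (GAS). Guanylate-binding proteins are large GTPases that act against intracellular pathogens and are known for strong induction by interferon-gamma. Psmb8 and Psmb9 are catalytic subunits of the immunoproteasome, which take the places of Psmb5 and Psmb6 of the standard proteasome and cut peptides for MHC class I. Bst2 (tetherin) holds budding virus at the cell surface, Rsad2 (viperin) makes an antiviral nucleotide, and Ifit1 and Ifit3 bind viral RNA or the proteins that do.

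The stretches just before the start sites of 5 members, picked with the array results known, are shown because they differ in these 2 motifs. The stretches were not tested for a link to the course of the genes in the arrays. They are RefSeq sequences of mouse build GRCm38.p6, written 5′ to 3′ on the gene's strand, up to 250 bases ending just before the annotated start. Capitals mark matches, on either strand, to GAAA, any 2 bases and GAAA again for the ISRE and to TTC, any 3 bases and GAA for the GAS. The Gbp2 window lies at chr3:142620413-142620662, that of Gbp3 at chr3:142559794-142560015, cut to 222 bases where the annotated gene begins, and that of Psmb8 at chr17:34197945-34198194, all on the plus strand. Those of Bst2 (chr8:71537473-71537722, minus strand) and Ifit1 (chr19:34640639-34640888, plus strand) are from the type I set, in which only Bst2 had a GAS match.
Gbp2: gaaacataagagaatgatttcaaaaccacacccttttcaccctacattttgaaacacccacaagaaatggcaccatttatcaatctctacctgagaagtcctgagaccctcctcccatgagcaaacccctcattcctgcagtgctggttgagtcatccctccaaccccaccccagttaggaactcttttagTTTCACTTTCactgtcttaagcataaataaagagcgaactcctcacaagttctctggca
Gbp3: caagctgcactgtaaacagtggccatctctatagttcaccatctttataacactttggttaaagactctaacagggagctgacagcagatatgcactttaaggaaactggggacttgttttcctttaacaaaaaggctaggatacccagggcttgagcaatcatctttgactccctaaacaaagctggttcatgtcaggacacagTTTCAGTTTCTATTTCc
Psmb8: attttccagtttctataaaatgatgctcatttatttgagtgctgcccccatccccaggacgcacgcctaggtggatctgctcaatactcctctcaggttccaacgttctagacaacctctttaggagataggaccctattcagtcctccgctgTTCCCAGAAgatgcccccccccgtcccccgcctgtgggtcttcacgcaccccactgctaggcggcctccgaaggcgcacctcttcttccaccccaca
Bst2: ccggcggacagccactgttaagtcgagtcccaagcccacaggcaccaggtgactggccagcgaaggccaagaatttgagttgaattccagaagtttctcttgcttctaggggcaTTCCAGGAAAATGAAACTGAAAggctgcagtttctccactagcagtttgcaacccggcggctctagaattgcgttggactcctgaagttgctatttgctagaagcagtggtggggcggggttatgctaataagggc
Ifit1: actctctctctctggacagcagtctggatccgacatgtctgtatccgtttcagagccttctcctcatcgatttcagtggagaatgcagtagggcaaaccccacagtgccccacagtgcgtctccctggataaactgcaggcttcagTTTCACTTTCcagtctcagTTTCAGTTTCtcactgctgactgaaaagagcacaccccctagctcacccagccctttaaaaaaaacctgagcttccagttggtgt

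All 9 members had at least 1 such window. Distances count from the start site that the window belongs to. An ISRE match stood in a window of 7 of them, and the exceptions were Psmb8 and Psmb9. The Gbp2 match lay 59 bases before the start and those of Ifit1 at 104 and 85 bases. The matches of Gbp3, which overlap each other, lay 45 and 39 bases before a start that is itself 28 bases inside the annotated gene, so they stand that much closer to the end of the stretch printed here. The window of Ifit3 lay wholly inside its annotated gene. A GAS match stood in a window of 2, Psmb8 (97 bases before the start) and Bst2 (136 bases), and in Bst2 it overlapped the first of 2 ISRE matches at 130 and 124 bases. Psmb9 had neither. Among 32851 windows of the same length, 2.98% held an ISRE match and 7.02% a GAS match. A match is a description of letters, not of a site in use, and its absence says only that these letters are not in this window.

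The labelled cell type was checked first. None of the 8 fibroblast markers was at or under the limit for dim genes on both arrays of any group. Macrophage markers were present as well: the summed normalized intensity of 15 of them was 3627 to 3758 on the 6TCF day 0 arrays and 7897 to 8858 on the SGCF day 0 arrays. Under 6TCF it was 998 to 1150 at day 5 and 1772 to 1886 at day 10. Under SGCF it was 729 to 942 and then 723 to 850. At day 0, 1 of the 15 was dim on both arrays of each arm, against 2 (6TCF) and 6 (SGCF) at day 10. T and NK cell markers, sources of interferon-gamma, summed to 226 to 327 in every group, and 4 to 7 of the 11 measured were dim on both arrays of a group. In such bulk RNA, fewer cells of a type and less RNA per cell cannot be told apart. Array medians of the deposited intensities were 102 to 142 for 6TCF and 60.9 to 86.2 for SGCF. Between arms, a batch effect and an effect of the combination cannot be told apart.

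**Figure D1:**
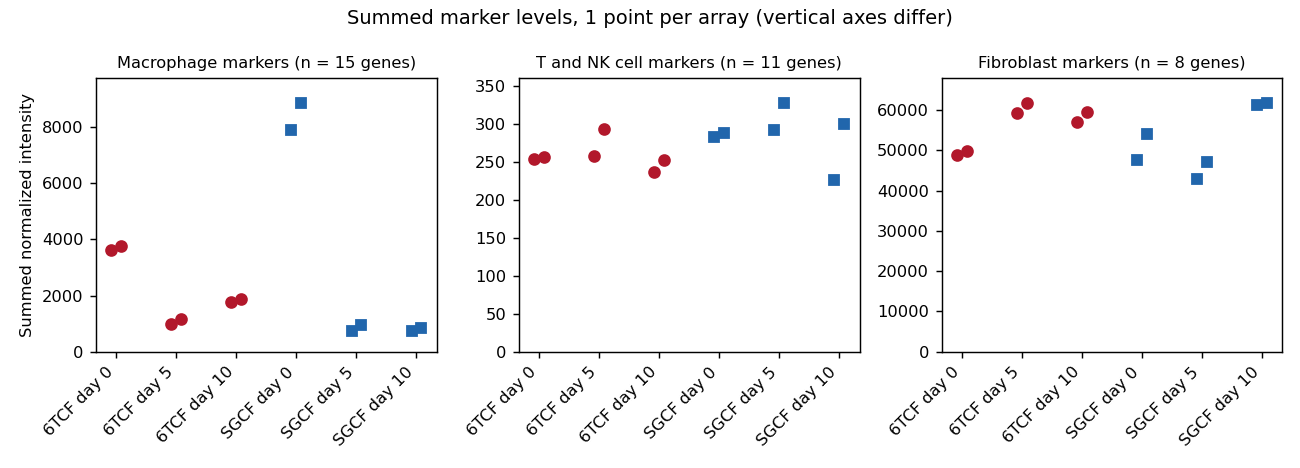
Summed normalized intensity of macrophage, T and NK cell, and fibroblast markers (vertical axes, starting at 0, differ between panels) in the 6 groups, 1 point per array, circles for 6TCF and squares for SGCF. The macrophage sum is highest on the SGCF day 0 arrays (7897 to 8858) and lowest on the SGCF day 5 and day 10 arrays (723 to 942).

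Levels below are log2(intensity + 16) after quantile normalization between arrays, and changes are differences on this scale, which understates changes of dim genes. A gene was called at a Benjamini-Hochberg adjusted p under 0.05 over all 10674 genes in limma. Errors of changes are standard errors (SE) of that fit.

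Gbp2 (probe set 1435906_x_at) had levels of 6.84 and 6.70 on the 6TCF day 0 arrays, 7.87 and 8.34 at day 5, and 10.13 and 10.87 at day 10. Under SGCF its levels were 6.90 and 7.30 at day 0, 5.61 and 6.02 at day 5, and 8.20 and 8.56 at day 10. The 3 days did not overlap in either arm: under 6TCF the level climbed at each step, and under SGCF it dipped at day 5 and ended above its start. Under 6TCF the change was 1.34 ± 0.25 by day 5 (adjusted p = 0.00178) and 3.73 ± 0.25 by day 10 (adjusted p = 3.28e-07). Under SGCF it was -1.29 ± 0.25 by day 5 (adjusted p = 0.0025) and 1.28 ± 0.25 by day 10 (adjusted p = 0.00169). Day 5 and day 10 are set against the same day 0 arrays. A second probe set of Gbp2 (1418240_at) gave 3.45 ± 0.19 for the change by day 10 under 6TCF and 1.11 ± 0.19 under SGCF, called in the same directions.

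Gbp3 encodes a close relative of Gbp2. Its levels were 5.47 and 4.90 at day 0, 5.84 and 6.58 at day 5, and 7.50 and 7.60 at day 10 under 6TCF. Under SGCF they were 6.51 and 5.28, then 4.51 and 4.65, then 6.51 and 7.26. The order of the days was that of Gbp2 in each arm, with a wide gap between the SGCF day 0 arrays, the upper of which equalled the lower day 10 array to the second decimal. By day 10 Gbp3 rose 5.16-fold under 6TCF (2.37 ± 0.37, adjusted p = 0.000294). The SGCF change by day 10, 0.99 ± 0.37, missed the threshold (adjusted p = 0.0516). It became a call without SGCF day 0 replicate 1 (1.62, adjusted p = 0.00423) or without SGCF day 10 replicate 1 (1.38, adjusted p = 0.0348).

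Psmb8, the immunoproteasome counterpart of Psmb5, had levels of 5.83 and 5.93, then 5.65 and 5.96, then 6.91 and 6.76 on the 6TCF arrays of days 0, 5 and 10. On the SGCF arrays these were 6.94 and 6.96, then 6.09 and 6.15, then 7.18 and 7.08. Days 0 and 5 overlapped under 6TCF and both lay below day 10. Under SGCF day 5 lay below the other days, which were close to each other. The rise by day 10 was 0.96 ± 0.13 under 6TCF (1.94-fold, adjusted p = 9.6e-05), and the SGCF change was 0.18 ± 0.13 (adjusted p = 0.305).

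Psmb9, the counterpart of Psmb6, lay close above the limit for dim genes, log2 5.25. Its levels were 5.47 and 5.86, then 6.23 and 5.85, then 6.06 and 6.26 under 6TCF, and 5.69 and 5.38, then 6.01 and 5.68, then 6.23 and 6.18 under SGCF. Day 0 and day 5 overlapped in both arms, and day 10 lay above day 0 in both. The change by day 10 was 0.49 ± 0.18 under 6TCF (adjusted p = 0.049) and 0.67 ± 0.18 under SGCF (adjusted p = 0.0134). The 6TCF call ended without day 0 replicate 1 (0.29, adjusted p = 0.335), day 10 replicate 1 (0.58, adjusted p = 0.0794) or day 10 replicate 2 (0.38, adjusted p = 0.229). The SGCF call ended without day 0 replicate 2 (0.51, adjusted p = 0.0963) or day 10 replicate 1 (0.65, adjusted p = 0.0638).

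Bst2 was the type I member with the widest course. Under 6TCF its levels were 7.61 and 7.50 at day 0, 8.13 and 8.32 at day 5, and 9.28 and 9.06 at day 10. Under SGCF they were 8.81 and 8.42, then 7.65 and 7.46, then 7.99 and 7.98. The days did not overlap in either arm, and the order was rising under 6TCF and highest at day 0 under SGCF. Bst2 rose 3.06-fold by day 10 under 6TCF (1.62 ± 0.15, adjusted p = 5e-06) and fell 1.55-fold under SGCF (-0.63 ± 0.15, adjusted p = 0.00618).

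Ifit3, an RNA-sensing partner protein with a near-identical gene copy from which its signal may not be separable, had levels of 6.37 and 6.33, then 6.55 and 6.81, then 7.55 and 7.34 under 6TCF. Under SGCF its levels were 7.35 and 7.39, then 7.59 and 7.49, then 6.86 and 7.05. The 6TCF groups did not overlap and lay in the order of the days, and under SGCF day 10 was the lowest group. By day 10 the change was 1.1 ± 0.13 under 6TCF (2.14-fold, adjusted p = 3.91e-05) and -0.41 ± 0.13 under SGCF (adjusted p = 0.0268). The SGCF call ended without day 0 replicate 2 (-0.39, adjusted p = 0.077) or day 10 replicate 1 (-0.32, adjusted p = 0.172).

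Ifit1, which binds foreign RNA ends, had levels of 5.51 and 5.55, then 5.15 and 5.68, then 6.08 and 5.99 under 6TCF, and 6.62 and 6.15, then 5.29 and 5.80, then 5.54 and 6.01 under SGCF. Day 10 lay above both earlier days under 6TCF, and day 0 lay above both later days under SGCF. Neither change by day 10 passed the test: 0.50 ± 0.23 under 6TCF (adjusted p = 0.0979) and -0.61 ± 0.23 under SGCF (adjusted p = 0.0547). The latter became a call without SGCF day 0 replicate 2 or without SGCF day 10 replicate 2 (-0.85 each, adjusted p = 0.033 and 0.036).

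Rsad2 (probe set 1436058_at) had levels of 5.75 and 5.44, then 6.32 and 5.93, then 6.03 and 5.99 under 6TCF. Under SGCF they were 6.30 and 6.39, then 5.94 and 6.02, then 5.91 and 6.06. Day 0 was the lowest group under 6TCF and the highest under SGCF. The change by day 10 was 0.42 ± 0.15 under 6TCF (adjusted p = 0.0406) and -0.36 ± 0.15 under SGCF (adjusted p = 0.0792). Its probe sets disagreed: under 6TCF by day 10, 1421008_at changed by -0.53 ± 0.12 (adjusted p = 0.00355) and 1421009_at by 0.00 ± 0.13 (adjusted p = 0.986), so no direction is given for Rsad2 as a gene under 6TCF. The call on 1436058_at also ended without day 0 replicate 2 (0.26, adjusted p = 0.309), day 10 replicate 1 (0.39, adjusted p = 0.153) or day 10 replicate 2 (0.43, adjusted p = 0.116).

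**Figure D2:**
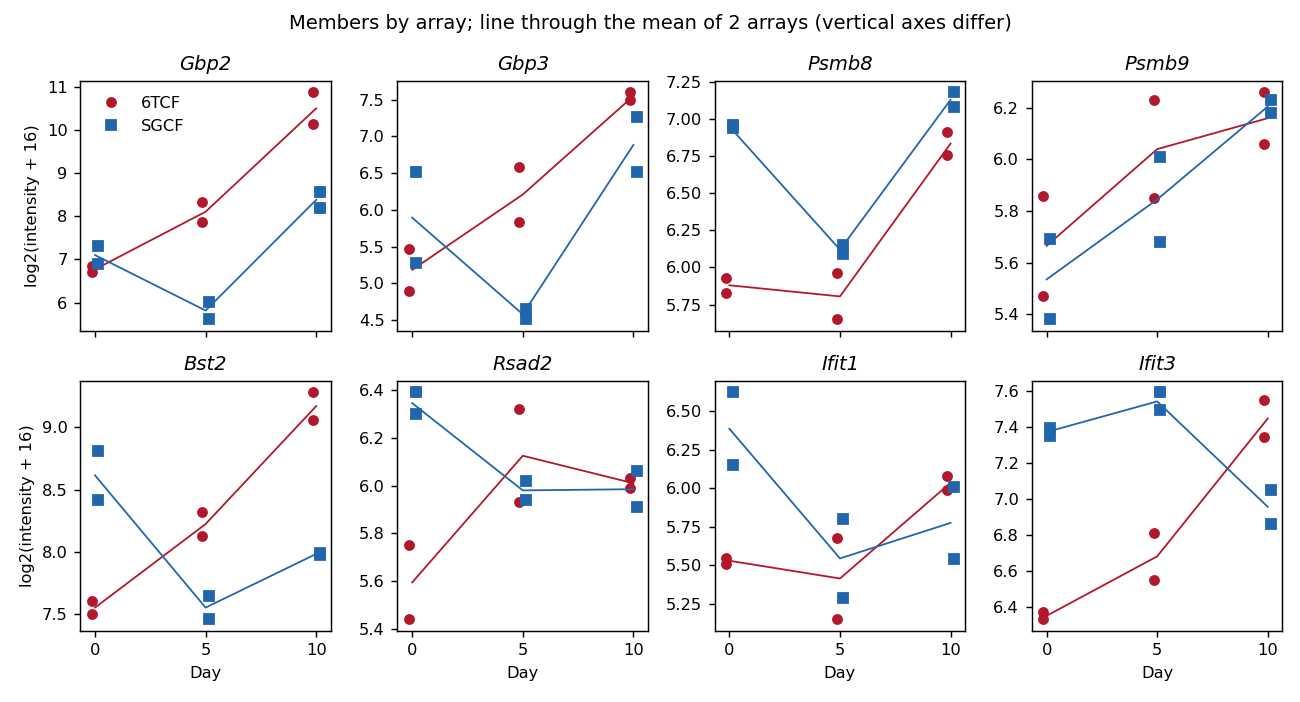
Level of the 8 measured members, log2(intensity + 16) on vertical axes that differ between panels, against day, 1 point per array (red circles 6TCF, blue squares SGCF) with lines through the mean of 2 arrays. Gbp2 climbs from 6.70 to 6.84 at day 0 to 10.13 to 10.87 at day 10 under 6TCF, and dips to 5.61 to 6.02 at day 5 under SGCF.

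By day 5 under 6TCF, 3 of 8 members rose (Gbp2, Bst2 and Rsad2 by probe set 1436058_at), where 15.1% of all genes tested rose. None fell, against 12.6% of all genes, and 5 were not called. Bst2 changed by 0.67 ± 0.15 (adjusted p = 0.00599) and Rsad2 by 0.53 ± 0.15 (adjusted p = 0.0195). Gbp3 changed by 1.03 ± 0.37 (adjusted p = 0.059). The members' median change was 0.45, that of all genes 0.00. Without 6TCF day 0 replicate 2 the calls on Bst2 (0.61, adjusted p = 0.0574) and Rsad2 (0.38, adjusted p = 0.196) ended, and without 6TCF day 5 replicate 1 that on Rsad2 did (0.34, adjusted p = 0.17). With the 4 day 0 arrays of both arms as 1 group Bst2 stood at 0.14 (adjusted p = 0.779) and Rsad2 at 0.16 (adjusted p = 0.664).

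By day 10 under 6TCF, 7 of 8 members rose and none fell, where 23.2% of all genes rose and 20% fell; Rsad2 is counted on probe set 1436058_at. All 4 guanylate-binding and immunoproteasome genes were among them, with a median change of 1.66, as were 3 of 4 measured type I genes, with a median of 0.80. The median over all genes was -0.01. Between days 5 and 10, 5 of 8 members rose further and none fell, against 8.69% and 7.12% of all genes: Gbp2 by 2.39 ± 0.25, Gbp3 by 1.34 ± 0.37, Psmb8 by 1.04 ± 0.13, Bst2 by 0.95 ± 0.15 and Ifit3 by 0.77 ± 0.13. Of 14 macrophage markers tested, 12 fell by day 10 while these members rose, but 7 rose and none fell between days 5 and 10, and their part in the later rise was not tested. The macrophage count dropped to 1 when 6TCF day 5 replicate 1 was left out, and leaving out day 10 replicate 1 or 2 gave counts of 3 and 4. In that step the call on Gbp3 ended without 6TCF day 5 replicate 1 (0.98, adjusted p = 0.23), day 10 replicate 1 (1.39, adjusted p = 0.13) or day 10 replicate 2 (1.28, adjusted p = 0.115), and that on Ifit3 without day 10 replicate 1 (0.66, adjusted p = 0.0525). For actin, the level at the 3′ end minus that at the 5′ end, a sign of RNA quality, was 0.30 and 0.39 at day 0, 0.76 and 0.88 at day 5, and 1.04 and 1.03 at day 10 under 6TCF, and its part in these rises was not tested. The same measure for Gapdh was 0.34 and 0.44, then 0.59 and 0.40, then 0.49 on both day 10 arrays. Under SGCF actin gave 0.28 and 0.38, then 0.48 and 0.42, then 0.46 and 0.47. Gapdh under SGCF gave 0.02 and -0.05, then 0.17 and 0.03, then 0.12 and 0.10.

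By day 5 under SGCF, 5 of 8 members fell and none rose, where 12.7% of all genes fell and 12.8% rose. Those that fell were Gbp2, Gbp3 (-1.32 ± 0.37, adjusted p = 0.0212), Psmb8 (-0.83 ± 0.13, adjusted p = 0.00047), Bst2 (-1.06 ± 0.15, adjusted p = 0.000263) and Ifit1 (-0.84 ± 0.23, adjusted p = 0.0192). Their fall ran beside that of the macrophage markers, 13 of 14 tested of which fell in this step, and the part of those cells in the members' fall was not tested. The call on Gbp3 ended without SGCF day 0 replicate 1 (-0.71, adjusted p = 0.159), day 5 replicate 1 (-1.27, adjusted p = 0.0988) or day 5 replicate 2 (-1.41, adjusted p = 0.0676). That on Ifit1 ended without day 0 replicate 1 (-0.61, adjusted p = 0.121) or day 5 replicate 1 (-0.59, adjusted p = 0.163). With the 4 day 0 arrays of both arms as 1 group only Gbp2 was called, and Bst2 stood at -0.53 (adjusted p = 0.237) and Psmb8 at -0.30 (adjusted p = 0.513).

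Between days 5 and 10 under SGCF, 3 of 8 members rose and 1 fell, where 11.7% of all genes rose and 9.97% fell. The 3 were Gbp2 (2.57 ± 0.25, 5.94-fold, adjusted p = 2.72e-05), Gbp3 (2.31 ± 0.37, 4.96-fold, adjusted p = 0.000872) and Psmb8 (1.01 ± 0.13, adjusted p = 0.000182). All 3 belong to the guanylate-binding and immunoproteasome genes, whose median change was 1.66. Among the type I genes, whose median was 0.12, Ifit3 fell by 0.58 (SE 0.13, adjusted p = 0.00774), and Bst2 changed by 0.43 ± 0.15 (adjusted p = 0.0628). The call on Ifit3 ended without SGCF day 5 replicate 1 (-0.53, adjusted p = 0.0609) or day 10 replicate 1 (-0.49, adjusted p = 0.0709). Of 14 macrophage markers tested in this step, none rose and 1 fell.

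Against day 0, SGCF day 10 showed 2 of 8 members higher (Gbp2 and Psmb9) and 2 lower (Bst2 and Ifit3), where 20.5% of all genes rose and 18.3% fell. The counts are near those shares. The subset medians lay on either side of 0: 0.83 for the 4 guanylate-binding and immunoproteasome genes and -0.51 for the 4 type I genes. The median of all genes was 0.03. This split rests on the SGCF arm's own day 0: with the day 0 arrays of both arms as 1 group, 3 members were higher and none lower. Rsad2 entered with -0.36 (1436058_at), while 1421008_at gave 0.21 and 1421009_at -0.33. The 15 other type I effectors tested had a median of 0.10 against SGCF day 0. In the same comparison 13 of 14 macrophage markers tested fell, with a median of -2.77, and their part in the falls of Bst2 and Ifit3 was not tested.

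**Figure D3:**
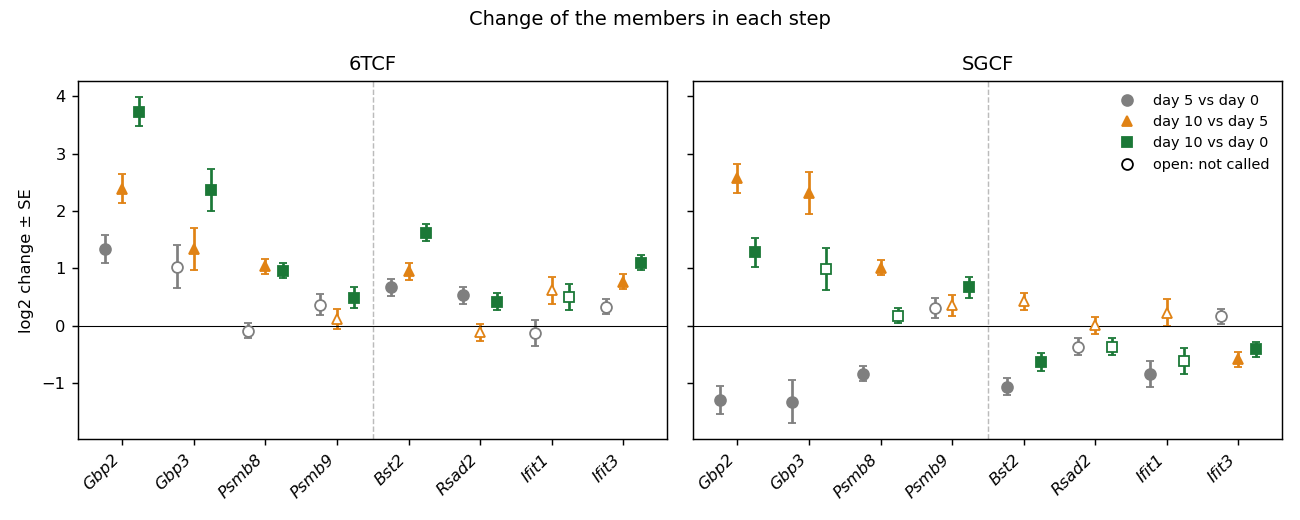
Change of each measured member (log2, vertical axis, with SE bars) by day 5, from day 5 to day 10 and by day 10 in the 6TCF (left) and SGCF (right) arms, filled where called at an adjusted p under 0.05; the dashed line separates the guanylate-binding and immunoproteasome genes from the type I genes. By day 10 the changes run from 0.42 to 3.73 under 6TCF and from -0.63 to 1.28 under SGCF.

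The arms already differed at day 0. There, 5 of 8 members were higher in the SGCF arm and none lower, against 8.59% and 8.81% of all genes. These were all 4 measured type I genes (Ifit3 by 1.02 ± 0.13, Bst2 by 1.06 ± 0.15, Ifit1 by 0.85 ± 0.23, Rsad2 by 0.75 ± 0.15 on probe set 1436058_at and by -0.18 ± 0.12 on 1421008_at) and Psmb8 (1.07 ± 0.13, adjusted p = 0.000414). Gbp2 differed by 0.33 ± 0.25 (adjusted p = 0.392). In the same comparison 13 of 14 tested macrophage markers were higher in the SGCF arm, and their part in the members' difference was not tested. Calls on Ifit1 ended without 6TCF day 0 replicate 1 (0.82), 6TCF day 0 replicate 2 (0.87) or SGCF day 0 replicate 1 (0.62), that on Rsad2 ended without 6TCF day 0 replicate 2 (0.59), and Gbp3 became a call without SGCF day 0 replicate 2 (1.34). Without normalization between arrays 1 member was higher and 1 lower.

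Whether the change from day 0 differed between the arms was tested as an interaction, SGCF minus 6TCF. By day 5 it did for 5 of 8 members, all lower under SGCF, where 6.06% of all genes were lower and 2.91% higher: Gbp2 (-2.63 ± 0.36, adjusted p = 0.00069), Gbp3, Psmb8, Bst2 and Rsad2. By day 10 it did for 6 of 8, again all lower, where 13.4% of all genes were lower and 12.3% higher. Those 6 were Gbp2 (-2.45 ± 0.36, adjusted p = 0.000652), Psmb8 and all 4 measured type I genes, led by Bst2 (-2.24 ± 0.21, adjusted p = 4.19e-05) and Ifit3 (-1.51 ± 0.19, adjusted p = 0.000226). For Rsad2 the sign depended on the probe set, since 1421008_at gave 0.74 ± 0.17 (adjusted p = 0.0098) by day 10. In the same test 13 of 14 macrophage markers were lower under SGCF, and their part in the members' difference was not tested. The actin measure of RNA quality rose more under 6TCF than under SGCF, and its part was not tested either. Psmb9 differed between the arms by 0.17 ± 0.26 (adjusted p = 0.662) and Gbp3 by -1.37 ± 0.52 (adjusted p = 0.0737). These differences rest on each arm's own day 0, where the arms were unlike: with the 4 day 0 arrays as 1 group, Psmb8 (0.42, adjusted p = 0.286), Ifit3 (0.59, adjusted p = 0.122) and Rsad2 (0.04, adjusted p = 0.903) were not called by day 10 under 6TCF, and Bst2 (-0.10, adjusted p = 0.833) and Ifit3 (0.10, adjusted p = 0.826) were not called under SGCF.

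Over the 12 arrays the members ran together to different degrees. The levels of Gbp2 and Gbp3 correlated at Pearson's r = 0.91, those of Gbp3 and Bst2 at 0.78 and those of Gbp2 and Bst2 at 0.77, while Psmb9 and Ifit1 gave -0.29. Of all other tested genes, Septin4 (r = 0.97), Ppp1r14c (0.947), Maged1 (0.946), Mcoln2 (0.945) and Hacd4 (0.945) were most like Gbp2. Clec11a (0.938), Gpt2 (0.917), Cxcl10 (0.897), BC004004 (0.883) and Psmg2 (0.881) were most like the mean of the type I members. The 12 arrays share groups and processing, so these values are descriptions.

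Among the other interferon-inducible GTPases, 7 were tested, of which 6 rose and 1 fell by day 10 under 6TCF (median 1.67). Of all genes, 23.2% rose and 20% fell in that comparison. Iigp1, which attacks the vacuoles of intracellular parasites, had levels of 5.56 and 5.42 at day 0 and 8.73 and 8.71 at day 10 under 6TCF (3.23 ± 0.18). Under SGCF its levels were 6.69 and 6.15 at day 0 and 8.31 and 8.56 at day 10 (2.02 ± 0.18). Irgm2 (2.50 ± 0.24), Ifi47 (2.40 ± 0.18) and Gbp7 (1.67 ± 0.13) rose under 6TCF as well, and the gene that fell was Irgm1 (-0.96 ± 0.19), named after its values were seen. Under SGCF 5 of 7 fell and none rose by day 5, where 12.7% of all genes fell and 12.8% rose. By day 10, 3 rose and 2 fell (median 0.49), where 20.5% of all genes rose and 18.3% fell. Neither of the 2 falls was called without SGCF day 10 replicate 1. Ifi47 went opposite ways, from 6.79 on both day 0 arrays to 9.13 and 9.25 at day 10 under 6TCF and from 7.02 and 7.36 to 6.28 and 6.88 under SGCF, a difference in change of -3.00 ± 0.25 (adjusted p = 1.72e-05). The SGCF fall of Ifi47 (-0.61 ± 0.18) was not called without day 0 replicate 2 (-0.44, adjusted p = 0.124) or day 10 replicate 1 (-0.31, adjusted p = 0.196).

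The antigen-processing genes that work with Psmb8 and Psmb9 split. Of 11 tested, 5 rose and 3 fell by day 10 under 6TCF (median 0.17), and 6 rose and none fell under SGCF (median 0.47). The shares of all genes were 23.2% higher and 20% lower under 6TCF, and 20.5% and 18.3% under SGCF. Psmb10, the third immunoproteasome subunit, had levels of 7.99 and 7.86 at day 0 and 9.25 and 9.28 at day 10 under 6TCF (1.34 ± 0.12). Under SGCF they were 8.55 and 8.54, then 8.38 and 8.60 (-0.06 ± 0.12), and the difference in change was -1.40 ± 0.17 (adjusted p = 0.000222). Psme1, a proteasome activator subunit, changed by 1.42 ± 0.14 under 6TCF. The peptide transporter Tap1 changed by 0.81 ± 0.13 under 6TCF and 1.16 ± 0.13 under SGCF, and with the mean of its probe sets the 6TCF change was 0.11 (adjusted p = 0.407).

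The MHC class I chains differed in sign between the arms. H2-D1 had levels of 9.54 and 9.43 at day 0 and 8.82 and 8.81 at day 10 under 6TCF (-0.67 ± 0.14), and 9.98 and 9.69, then 10.93 and 10.90 under SGCF (1.08 ± 0.14). Its difference in change was 1.75 ± 0.19 (adjusted p = 0.000107). B2m, the shared light chain, changed by -0.45 ± 0.16 under 6TCF and 0.92 ± 0.16 under SGCF (difference 1.37 ± 0.22, adjusted p = 0.00131). Its 6TCF fall was not called without day 0 replicate 1 (-0.40), day 0 replicate 2 (-0.50) or day 10 replicate 1 (-0.33). H2-K1, named after its values were seen, changed by -0.58 ± 0.15 and 0.93 ± 0.15. The class I genes are alike in sequence, so signal may be shared between their probe sets.

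Of 7 standard proteasome beta subunits tested, 1 rose (Psmb4, 0.34 ± 0.13) and none fell by day 10 under 6TCF, with a median change of -0.04. Psmb5 changed by -0.04 ± 0.15 and Psmb6 by 0.06 ± 0.14. Under SGCF 1 of 7 fell, Psmb5 by 0.47 (SE 0.15), and none rose. The shares of all genes were 23.2% higher and 20% lower under 6TCF, and 20.5% and 18.3% under SGCF. The call on Psmb4 ended without any 1 of the 4 arrays compared (0.28 to 0.40), and that on Psmb5 without SGCF day 0 replicate 2 (-0.26) or day 10 replicate 1 (-0.31). With median scaling, or with no normalization, 5 of the 7 fell under SGCF.

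**Figure D4:**
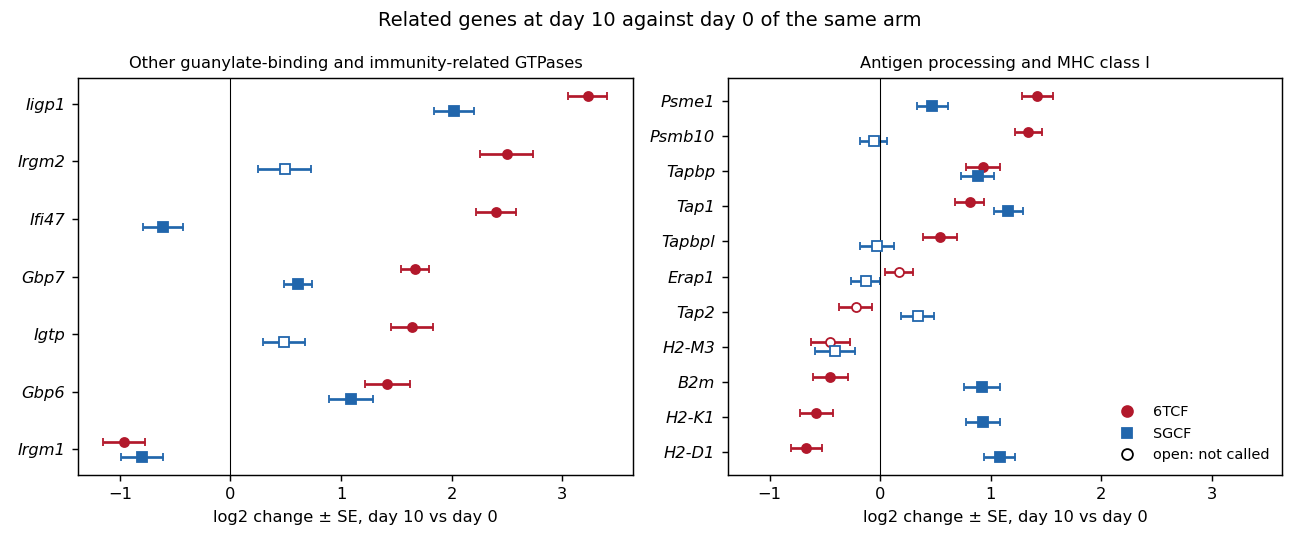
Change by day 10 against day 0 of the same arm (log2, horizontal axis, with SE bars) for the tested GTPases (left) and antigen-processing genes (right), red circles 6TCF and blue squares SGCF, filled where called. Iigp1 lies at 3.23 and 2.02, while Ifi47 and the MHC class I genes H2-D1, H2-K1 and B2m have opposite signs in the arms.

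Upstream of the members, 7 of 9 interferon genes had a probe set and 3 were bright enough to test. None of the 3 was called by day 10 under 6TCF. Ifna2 fell by 0.37 (SE 0.13, adjusted p = 0.0377) by day 10 under SGCF and was higher by 0.40 ± 0.13 (adjusted p = 0.0471) in the SGCF arm at day 0, a value not recomputed without single arrays. The SGCF fall was not called without day 10 replicate 1 (-0.41) or day 10 replicate 2 (-0.34). Ifnb1 had group means of 4.83 to 5.12 and Ifng of 4.55 to 4.61, under the limit of 5.25 in every group. For the lists of this and the next paragraphs, the shares of all genes by day 10 are again 23.2% higher and 20% lower under 6TCF, and 20.5% and 18.3% under SGCF. Of 5 receptor chains tested, 1 rose under 6TCF by day 10 (Ifnar2, 0.47 ± 0.11) and 2 under SGCF (Ifnar1, 0.51 ± 0.15, and Ifnar2, 0.46 ± 0.11), and none fell in either arm. The call on Ifnar1 ended without SGCF day 0 replicate 2 (0.26) or day 10 replicate 1 (0.45).

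Of 11 JAK, STAT and IRF genes tested, 2 rose and none fell by day 10 under 6TCF, where 23.2% of all genes rose and 20% fell. The count of rises is near that share, and other settings gave 2 to 4 calls. The 2 were Irf1, the interferon-gamma responsive transcription factor (1.08 ± 0.13, adjusted p = 3.48e-05), and Jak2 (1.01 ± 0.15). Irf1 followed the order of Gbp2, with levels of 8.02 and 7.94, 8.67 and 8.58, then 9.07 and 9.04 under 6TCF, and 8.67 and 8.72, 8.09 and 7.81, then 9.07 and 9.27 under SGCF. Its SGCF change by day 10, 0.48 ± 0.13, was not called without day 10 replicate 2 (0.38, adjusted p = 0.0952). Under SGCF 4 of the 11 rose (2 without day 0 replicate 2 or day 10 replicate 2), among them Jak2 (0.82 ± 0.15) and Jak1 (0.69 ± 0.18), the latter not called without day 0 replicate 2 (0.38) or day 10 replicate 2 (0.62). Stat2 (-0.04 ± 0.21), Irf7 (0.14 ± 0.14) and Irf9 (0.18 ± 0.12), which serve the type I pathway, were not called under 6TCF.

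The remaining type I effectors were mixed: of 15 tested, 6 rose and 1 fell by day 10 under 6TCF (median 0.36), and 4 rose and 3 fell under SGCF (median 0.10). Without SGCF day 10 replicate 1, 3 rose and none fell. The largest change was that of the membrane antiviral gene Ifitm1, 3.49 ± 0.13 under 6TCF and 2.85 ± 0.13 under SGCF. Ifit2, the relative of Ifit1 and Ifit3, changed by 0.93 ± 0.13 under 6TCF and 0.10 ± 0.13 under SGCF (difference -0.83 ± 0.19, adjusted p = 0.00868). Cxcl10, a chemokine that both interferon types induce, comes from a separate list of interferon-gamma chemokines. It changed by 1.03 ± 0.23 under 6TCF and -0.84 ± 0.23 under SGCF, with a difference of -1.87 ± 0.33 (adjusted p = 0.00214). Its SGCF fall was not called without day 0 replicate 2 (-0.65) or day 10 replicate 1 (-0.60). The other of the 2 chemokines tested changed by -0.23 under 6TCF and -0.33 under SGCF and was called in neither.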

How the data were processed

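Total RNA from mouse embryonic fibroblasts was measured on 12 arrays. The authors deposited 1 linear intensity for each probe set and array. RMA, limma and MAS5 are named, without versions or roles, per the submitters' processing notes, so the tool behind the values is unknown here. Array medians differed, so quantile normalization was applied, then log2(intensity + 16). Each array held 2326 to 3658 distinct values over 22690 probe sets, a grid that gave steps of at most 0.06 between neighbouring log2 levels from 5 to 7. Each gene took its probe set of 1 symbol with the highest mean, with 20380 such probe sets and 691 of several symbols. Genes whose highest group mean exceeded the 25th percentile, log2 5.25, were tested in limma 3.58.1 (R 4.3.3) with 6 group means on all arrays (6 residual and 5.75 prior degrees of freedom), after the script was tested on simulated data. There were 9 comparisons, in which p-values were adjusted by Benjamini-Hochberg over 10674 genes. Replicate numbers were not used to pair arrays. The number of arrays limits the precision. The 9 members and 17 other lists were chosen with earlier results of these data known. From each list, up to 4 called genes with the largest change by day 10 under 6TCF and up to 2 under SGCF could be named, beside set signalling genes, and every member was. Alternatives covered normalization, pseudocount, filter, probe set choice, prior, replicate block, day 0 pooling, arrays fitted and each array left out.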

Additional observations from a re-analysis of the deposited data

Results flagged for a closer look

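The change from day 0 differed between the arms, by the test of the difference itself (SGCF minus 6TCF, limma, adjusted over all genes), for the following members. By day 5 the difference was -2.63 (SE 0.36, adjusted p = 0.00069) for Gbp2, -2.34 (SE 0.52, adjusted p = 0.0146) for Gbp3 and -0.75 (SE 0.18, adjusted p = 0.0222) for Psmb8. In the type I set it was -1.72 (SE 0.21, adjusted p = 0.000399) for Bst2 and -0.89 (SE 0.21, adjusted p = 0.0198) for Rsad2. By day 10 it was -2.45 (SE 0.36, adjusted p = 0.000652) for Gbp2 and -0.78 (SE 0.18, adjusted p = 0.0102) for Psmb8. In the type I set it was -2.24 (SE 0.21, adjusted p = 4.19e-05) for Bst2, -1.51 (SE 0.19, adjusted p = 0.000226) for Ifit3, -1.11 (SE 0.32, adjusted p = 0.0274) for Ifit1 and -0.77 (SE 0.21, adjusted p = 0.0207) for Rsad2. The values of Rsad2 are those of probe set 1436058_at, and 1421008_at gave 0.22 by day 5 and 0.74 (adjusted p = 0.0098) by day 10. Leaving out 1 array at a time ended the call, in at least 1 case, for Gbp3 (-1.94 without 6TCF day 5 replicate 2, -2.03 without 6TCF day 0 replicate 2, -2.32 without SGCF day 5 replicate 1), Psmb8 (-0.59 to -0.80 by day 5, -0.70 without 6TCF day 10 replicate 1 by day 10), Rsad2 (-0.70 to -0.87 by day 5, -0.62 to -0.78 by day 10) and Ifit1 (-0.88 to -1.13). The differences of Gbp2 and Bst2 at both days, and of Ifit3 at day 10, were called without each array in turn. Each arm has its own day 0, where macrophage markers, array brightness and the Gapdh measure of RNA quality differed between the arms. The actin measure rose more under 6TCF than under SGCF. The part of all these in the members' differences was not tested.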

How the results depend on the processing

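Of 1184 recomputed member values, 747 under other settings and 294 without 1 array stayed on the same side of the threshold without reversing a call, though 29 of these, called in neither fit, changed sign. Another 45 and 51 lost the call, 31 and 7 gained it, and 9 and 0 are named reversed. Reversed here means a change of sign with a call in either fit, so it includes values that only lost the call. Day 5 under 6TCF had 5 members called, not 3, with median scaling or cyclic loess. With all 4 day 0 arrays as 1 group, counts were 1 (6TCF day 5), 4 (6TCF day 10), 1 (SGCF day 5) and 3 (SGCF day 10, all higher). Between the arms at day 0, 2 were called without normalization and 3 with a filter at the 50th percentile. Reversed were Rsad2 with the mean of probe sets (-0.04, 6TCF day 10), with 1421009_at (-0.09 and 0.00, 6TCF days 5 and 10) and with 1421008_at (-0.36 and -0.53 there, -0.18 at day 0, 0.22 and 0.74 for the arm differences). So were Ifit3 (0.10) and Usp18 (0.02) for SGCF day 10 against all day 0 arrays, and Ifnar2's arm difference by day 10 with the mean of probe sets (0.48). Of the values of 1421009_at and 1421008_at, only -0.36, -0.53 and 0.74 of the latter were called in the opposite direction. The cause was not tested.

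Leaving out 1 array gave 1 to 3, 5 to 6 and 3 to 6 members called under 6TCF (day 5, day 10, day 10 against 5), 3 to 5, 3 to 5 and 3 to 4 under SGCF, 3 to 6 between arms at day 0, and 2 to 5 and 3 to 6 for the arm differences. The labels do not say whether replicate numbers pair the arrays. Deviations of same-numbered arrays of an arm correlated at -0.28 to 0.11, which cannot settle it, since a negative value could also come from crossed numbers. A replicate block gave 3, 6 and 4 members under 6TCF, 5, 3 and 4 under SGCF, 5 between arms, and 5 and 6 for the arm differences, without Psmb9 (6TCF day 10), Gbp3 (6TCF day 10 against 5) and Ifit3 (SGCF day 10). Crossing the SGCF day 5 numbers, a pairing added after seeing the data, gave 5 members and 2770 genes called for SGCF day 5. With the numbers as given the block called 2432 genes there.

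Counts over all genes moved by more than 1.5 times as follows. Without normalization 7027 genes (65 higher, 6962 lower) differed between arms at day 0, against 1857 (917 and 940), with a median shift of -0.61, and 1212 changed from day 5 to 10 under SGCF, against 2318. Fitting only the arrays compared gave 631 at day 0, 1489 for SGCF day 10 against 5, and 2612, against 1688, for 6TCF day 10 against 5. Without 1 array, the lowest counts were 1765 of 2958 (6TCF day 5), 372 (6TCF day 10 against 5), 1377 (SGCF day 10 against 5), 385 (day 0, up to 2997), 575 of 958 and 1459 of 2740 (arm differences). Lacking normalization also moved the split of higher and lower calls: to 855 and 2015 from 1617 and 1341 (6TCF day 5), 1189 and 208 from 928 and 760 (6TCF day 10 against 5), 456 and 2376 from 1370 and 1357 (SGCF day 5), and 766 and 2683 from 2192 and 1952 (SGCF day 10). The arm differences went to 119 and 529 from 311 and 647 by day 5, and to 343 and 1602 from 1309 and 1431 by day 10. Median scaling gave 885 and 1231 in place of 1254 and 1064 (SGCF day 10 against 5).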

Other observations

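Other inflammatory genes measured beside the members are given as log2 changes by day 10, first under 6TCF and then under SGCF. Of all genes tested, 23.2% rose and 20% fell under 6TCF, and 20.5% and 18.3% under SGCF. Of 10 NF-kappaB targets tested, 5 rose and 1 fell by day 10 under 6TCF, and 7 rose and 1 fell under SGCF. The adhesion gene Icam1 changed by 2.59 and 3.46, and the chemokine Cxcl1 by 2.77 and 0.91. Of 6 feedback inhibitors tested, 1 rose under 6TCF, Socs3 by 2.52. Under SGCF 2 rose and 2 fell, with Socs3 at 1.89 and Ptpn6 at -1.12. Beside these falls, 13 of 14 macrophage markers tested fell under SGCF, and their part was not tested. Socs1 changed by 0.10 and 0.72, and Usp18, which restrains the type I receptor, by -0.05 and -0.58. The SGCF call on Socs1 ended without day 10 replicate 1 (0.61), and that on Usp18 without day 0 replicate 1 (-0.19), day 10 replicate 1 (-0.47) or day 10 replicate 2 (-0.70). Of 9 nucleic acid and pattern sensors tested, 4 rose and 1 fell under 6TCF, and 3 rose and 1 fell under SGCF. Ifi204 changed by 1.84 and 2.02, and Eif2ak2 by -0.66 and 0.37, the latter not called without any 1 of the 4 arrays compared (0.34 to 0.39). Of 5 MHC class II genes tested, 1 rose in each arm, H2-Eb1 by 0.46 and 0.79, the former not called without any 1 of the 4 arrays compared (0.35 to 0.56).

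The remaining marker lists moved less uniformly. Of 6 endothelial markers tested, 2 rose and 2 fell by day 10 under 6TCF, and 2 rose and 1 fell under SGCF. Of 2 plasmacytoid dendritic cell markers tested, 1 rose in each arm. Of 7 T and NK cell markers tested, 1 rose under 6TCF and 1 fell under SGCF. Of 8 fibroblast markers, 4 rose and 4 fell under 6TCF, and 4 rose and 1 fell under SGCF.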
